A study of Mus musculus with 24 samples.

Results

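The delta protocadherins are a small family of adhesion proteins of the cadherin superfamily, and 10 genes of the family were followed here: *Pcdh1*, *Pcdh7*, *Pcdh8*, *Pcdh9*, *Pcdh10*, *Pcdh11x*, *Pcdh17*, *Pcdh18*, *Pcdh19* and *Pcdh20*. They were found by gene symbol and make up 10 of the 26411 genes in the count tables. Delta protocadherins span the cell membrane and bind, mostly to their own kind, on neighbouring cells, and in the developing brain they are known for roles in cell sorting, migration, axon outgrowth and synapse formation. Unlike the clustered protocadherins, they are encoded by separate genes. The delta-1 members (*Pcdh1*, *Pcdh7*, *Pcdh9*, *Pcdh11x*) carry a cytoplasmic motif that binds protein phosphatase 1, and several delta-2 members (*Pcdh8*, *Pcdh10*, *Pcdh17*, *Pcdh18*, *Pcdh19*) act on the actin cytoskeleton or on N-cadherin, for example through the WAVE regulatory complex. *Pcdh20* is only sometimes counted with the family and was kept apart.

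The cells were neural stem and progenitor cells (NSPCs) cultured from the dorsal telencephalon of C57BL/6 mouse embryos at E12.5. *Kat6a*, which encodes a histone lysine acetyltransferase, was intact (*Kat6a*+/+), heterozygous (*Kat6a*+/-) or homozygous mutant (*Kat6a*-/-) for a constitutive allele that lacks several exons and ends in a premature stop in the catalytic domain. RNA was taken after 3 days with growth factors (proliferating) or after 3 days in serum on poly-L-ornithine and laminin (differentiating). Each of the 6 groups held 4 libraries, each from the cells of a single embryo. All cells had been expanded in culture and frozen before use, and a different RNA extraction kit was used in each condition, so kit and condition cannot be told apart.

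Total counts ranged from 7826660 to 40838203 per library. Levels are given as CPM (counts-per-million on library sizes scaled by TMM factors over all 24 libraries), as mean ± SD with n = 4, and 3 counts corresponded to 0.0759 to 0.387 CPM. *Kat6a* counts include exons outside the deletion and do not check the genotype. By their Y-linked reads, 3 of 4 embryos were male in each *Kat6a*+/+ group but only 1 of 4 in each mutant group, so sex and genotype overlapped in part. The labels gave 6 embryos to both conditions, and the sex read from *Xist* and Y-linked genes matched for 5 of them. Replicate 1 of *Kat6a*+/+ carried the same embryo label in both conditions but had 3734 Y-linked reads and 6 *Xist* reads in the differentiating and 2 and 73736 in the proliferating library, so at least 1 of these labels cannot be right as to the embryo. Comparisons that use both are given with and without them. The label also gives the litter, so the litter used for these libraries in fits with a litter term may be wrong too. Replicate 2 of *Kat6a*+/+ was labelled litter 4364 in the differentiating library, which had *Xist* reads. In the proliferating library, which had Y-linked reads, it was labelled 4346. Both were kept as labelled. In every group 9 of 10 neural stem and progenitor markers had a mean over 1 CPM, and *Emx1*, a defining gene of the dorsal telencephalon, was under 1 CPM in all 6 groups. Microglial and blood markers summed to at most 0.783 CPM in any library. These are bulk samples, so fewer cells of a type and less RNA per cell cannot be told apart. Among differentiating *Kat6a*-/- libraries, replicate 3 carried 69.0% and replicate 2 carried 4.22% of the summed quality weight of the group, and fitted changes there can differ from the ratio of the mean CPM.

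A large first exon that encodes the whole extracellular part is the usual layout of these genes. In GENCODE vM39 on GRCm39 the largest coding exon of the 10 genes was 2147 to 3174 bases long and held 62.2% (*Pcdh11x*) to 95.4% (*Pcdh20*) of the coding sequence, against a median of 33.2% over 21751 genes. The share was smaller than that of *Pcdh11x* in 72.6% and smaller than that of *Pcdh20* in 82.6% of those genes, so such a layout is not particular to this family. *Pcdh8*, *Pcdh9*, *Pcdh17* and *Pcdh20* lie on chromosome 14, *Pcdh10* and *Pcdh18* on chromosome 3, *Pcdh11x* and *Pcdh19* on chromosome X and *Pcdh7* on chromosome 5. The spans differed widely, from 4.54 kb for *Pcdh8* to 877 kb for *Pcdh9*.

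Promoter windows (250 bases before to 50 bases after the RefSeq start, GRCm38.p6) were at hand for 8 of the 10 genes. Of these, 4 are shown: *Pcdh8* and *Pcdh20*, which were lower in differentiating *Kat6a*-/- NSPCs, and *Pcdh7* and *Pcdh9*, which were higher in *Kat6a*-/- NSPCs in both conditions. Letters are 5′ to 3′ on the coding strand, and capitals mark CG dinucleotides and the motif TATAAA.
Pcdh8: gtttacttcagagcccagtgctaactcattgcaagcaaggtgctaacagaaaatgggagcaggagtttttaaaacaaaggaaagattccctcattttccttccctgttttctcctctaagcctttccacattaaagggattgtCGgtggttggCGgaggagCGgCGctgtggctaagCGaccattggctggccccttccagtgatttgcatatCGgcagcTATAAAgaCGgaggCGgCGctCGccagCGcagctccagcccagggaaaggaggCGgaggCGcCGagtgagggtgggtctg
Pcdh20: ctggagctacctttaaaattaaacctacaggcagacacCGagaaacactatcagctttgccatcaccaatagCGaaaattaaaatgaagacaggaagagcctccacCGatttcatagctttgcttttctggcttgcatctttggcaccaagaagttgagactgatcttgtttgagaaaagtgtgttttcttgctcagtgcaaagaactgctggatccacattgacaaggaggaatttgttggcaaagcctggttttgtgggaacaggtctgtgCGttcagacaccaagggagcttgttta
Pcdh7: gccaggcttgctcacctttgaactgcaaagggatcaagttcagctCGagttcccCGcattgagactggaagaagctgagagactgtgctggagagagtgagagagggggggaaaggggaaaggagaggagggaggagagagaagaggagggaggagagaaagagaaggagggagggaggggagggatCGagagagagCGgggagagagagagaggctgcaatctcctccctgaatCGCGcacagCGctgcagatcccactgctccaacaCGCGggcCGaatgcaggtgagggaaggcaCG
Pcdh9: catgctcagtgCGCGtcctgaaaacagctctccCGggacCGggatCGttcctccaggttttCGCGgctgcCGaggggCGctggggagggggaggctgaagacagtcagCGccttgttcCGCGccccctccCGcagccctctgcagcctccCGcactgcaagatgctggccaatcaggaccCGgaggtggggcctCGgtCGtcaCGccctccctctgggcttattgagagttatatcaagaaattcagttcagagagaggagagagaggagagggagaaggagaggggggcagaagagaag
The *Pcdh8* window (minus strand, GRCm38.p6 chr14:79771263-79771562) held 14 CG and a TATAAA that begins 30 bases before the start, a motif found on either strand in 13.6% of all 32851 windows. The *Pcdh20* window (minus strand, chr14:88471347-88471646) held 4 CG, the *Pcdh7* window (plus strand, chr5:57717831-57718130) held 11, and the *Pcdh9* window (minus strand, chr14:93890630-93890929) held 18, with a median of 7 over all windows. Thus the *Pcdh20* window was the only member window with fewer CG than that median. The motif CCGCCC, searched on both strands, was in 4 of 9 member windows and in 35.7% of all windows. These are letter matches in a fixed window and not tested sites.

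The levels in *Kat6a*+/+ NSPCs show which members these cells used. Compared per length (RPKM, CPM divided by the gene length in kilobases), *Pcdh10* had the highest mean level in proliferating *Kat6a*+/+ NSPCs, at 6.80 ± 2.59 RPKM, followed by *Pcdh9* at 4.95 ± 0.848 RPKM and *Pcdh7* at 4.05 ± 1.32 RPKM. *Pcdh17* was at 1.77 ± 0.319 RPKM, and *Pcdh8* and *Pcdh20* were at 0.0690 ± 0.0398 and 0.0433 ± 0.0523 RPKM. The ranges of neighbours in that order overlapped in 7 of 9 pairs. In differentiating *Kat6a*+/+ NSPCs the order opened with *Pcdh7* at 9.57 ± 1.83 RPKM and *Pcdh10* at 9.04 ± 2.82 RPKM, with overlapping ranges, and *Pcdh8* had moved from ninth to the fourth place at 3.22 ± 0.944 RPKM.

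The comparison of conditions within *Kat6a*+/+ NSPCs addressed how the family behaves when differentiation is induced. Of the 10 members, 3 were higher and 3 were lower in differentiating NSPCs (limma, FDR under 0.05), where 72.9% of 13590 tested genes were called. *Pcdh8*, which encodes a protocadherin that is induced by neuronal activity and takes part in N-cadherin turnover, was at 0.152, 0.241, 0.201 and 0.507 CPM in the 4 proliferating libraries, from 2 to 6 counts each. In the differentiating libraries it was at 15.4, 10.3, 16.7 and 8.97 CPM. The groups did not overlap, and the fitted difference was 5.63 on the log2 scale (SE 0.86, FDR 5.58e-06). *Pcdh20* was at 0.0506, 0, 0.604 and 0.254 CPM in proliferating and at 1.98, 0.328, 1.64 and 0.377 CPM in differentiating libraries, with a log2 fold-change of 2.87 (SE 0.87, FDR 0.00532) that rests on 0 to 6 counts in each proliferating library. *Pcdh7*, a delta-1 member with a part in axon outgrowth, rose from 41.0 ± 13.3 to 96.8 ± 18.5 CPM (log2 fold-change 1.34, SE 0.25, FDR 6.29e-05).

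The 3 members that were lower in differentiating *Kat6a*+/+ NSPCs were *Pcdh9*, *Pcdh11x* and *Pcdh18*. *Pcdh9* fell from 30.9 ± 5.29 to 12.9 ± 2.00 CPM (log2 fold-change -1.20, SE 0.16, FDR 6.00e-07). *Pcdh18*, whose product binds the adaptor Dab1, fell from 19.7 ± 3.47 to 10.6 ± 1.76 CPM (log2 fold-change -0.94, SE 0.20, FDR 0.000232). *Pcdh11x* fell from 33.9 ± 6.94 to 18.7 ± 4.85 CPM (log2 fold-change -0.82, SE 0.17, FDR 0.000236). The direction was therefore not shared within the delta-1 group, where *Pcdh7* was higher and *Pcdh9* and *Pcdh11x* were lower. *Pcdh1*, *Pcdh10*, *Pcdh17* and *Pcdh19* did not pass the test, with log2 fold-changes of -0.24, 0.48, -0.08 and 0.25. Leaving out any single library left the same 6 members called, and without both *Kat6a*+/+ libraries of conflicting sex 5 were called, *Pcdh20* no longer (log2 fold-change 2.03, FDR 0.0842).

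**Figure D1:**
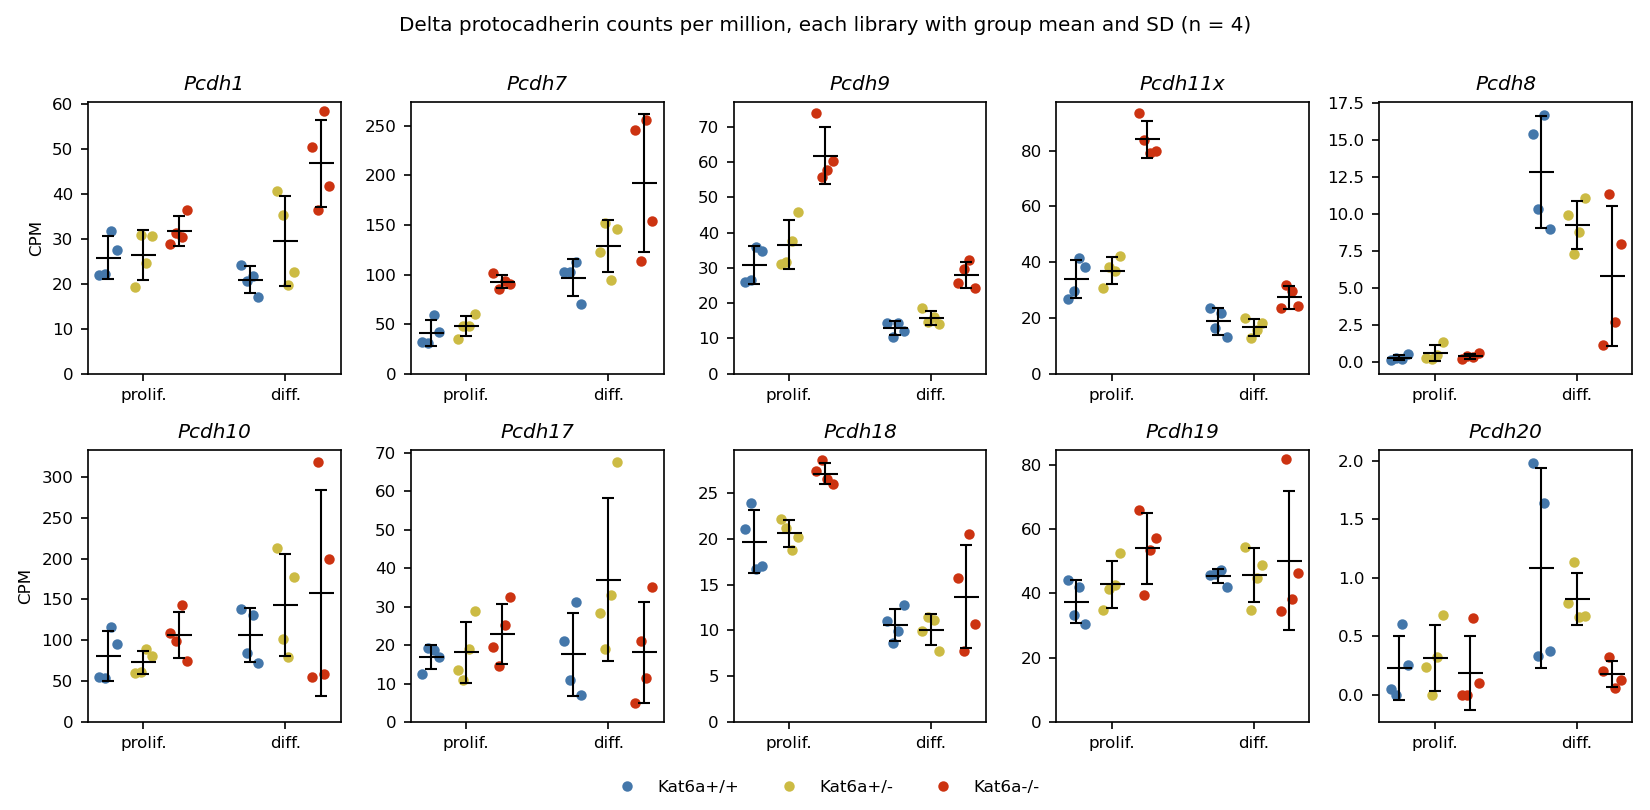
CPM of the 10 delta protocadherins in every library (dots), with the mean and SD of each group (n = 4); the left cluster of each panel is proliferating and the right cluster is differentiating, and each panel has its own axis. *Pcdh7*, *Pcdh9* and *Pcdh11x* are higher in every *Kat6a*-/- library than in any *Kat6a*+/+ library of the same condition, whereas *Pcdh8* and *Pcdh20* are near 0 in proliferating cells.

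Loss of *Kat6a* was then examined in proliferating NSPCs. *Pcdh8* and *Pcdh20* were too low to be tested there, and of the 8 members tested 5 were higher and 0 were lower in *Kat6a*-/- than in *Kat6a*+/+ NSPCs. Over all 12276 tested genes 30.0% were called, 16.2% higher and 13.8% lower. The median log2 fold-change was 0.50 over the 8 members and -0.0045 over all tested genes. The 4 *Kat6a*-/- libraries were all above the 4 *Kat6a*+/+ libraries for 4 of the 8 members, and 31.3% of all tested genes had groups that did not overlap in either direction.

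The largest fitted changes were those of the delta-1 members *Pcdh11x*, *Pcdh7* and *Pcdh9*. *Pcdh11x*, an X-linked member, was at 26.7, 29.6, 41.3 and 38.2 CPM in *Kat6a*+/+ libraries. In *Kat6a*-/- libraries it was at 93.3, 83.6, 79.1 and 79.9 CPM, so that the lowest mutant library was above the highest wildtype library, and the log2 fold-change was 1.35 (SE 0.12, FDR 1.30e-05). *Pcdh7* was at 31.7, 30.7, 59.5 and 42.1 CPM in *Kat6a*+/+ and at 101, 85.4, 93.4 and 90.4 CPM in *Kat6a*-/- libraries (log2 fold-change 1.20, SE 0.17, FDR 0.000357). The mutant libraries lay close together, whereas the wildtype libraries spread 1.94-fold. *Pcdh9* was at 26.1, 26.6, 36.0 and 34.9 CPM in *Kat6a*+/+ and at 73.8, 55.7, 57.7 and 60.2 CPM in *Kat6a*-/- libraries, again without overlap (log2 fold-change 1.03, SE 0.14, FDR 0.000229). *Pcdh1*, the fourth delta-1 member, was at 25.9 ± 4.73 and 31.8 ± 3.30 CPM and was not called (log2 fold-change 0.30, SE 0.14, FDR 0.129).

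Among the delta-2 members, *Pcdh18* was higher in all 4 *Kat6a*-/- libraries, at 27.4, 28.6, 26.5 and 25.9 CPM against 21.1, 23.9, 16.7 and 17.0 CPM in *Kat6a*+/+ libraries (log2 fold-change 0.51, SE 0.10, FDR 0.00288). *Pcdh19*, the X-linked gene mutated in a form of epilepsy with intellectual disability, was at 44.1, 33.3, 41.8 and 30.5 CPM in *Kat6a*+/+ and at 66.01, 39.4, 53.3 and 57.0 CPM in *Kat6a*-/- libraries. The groups overlapped through replicate 2 of *Kat6a*-/-, and the call was close to the threshold (log2 fold-change 0.49, SE 0.16, FDR 0.0386). The *Pcdh19* call was lost with litter or sex as a fixed term and without any of replicates 2, 3 or 4 of *Kat6a*+/+, 1, 3 or 4 of *Kat6a*-/- or 2 of *Kat6a*+/-, and its FDR ranged up to 0.260. *Pcdh10* and *Pcdh17* were not called, at log2 fold-changes of 0.43 (SE 0.24, FDR 0.198) and 0.47 (SE 0.26, FDR 0.185). *Pcdh10* was called without *Kat6a*+/+ replicate 3 and with quality weights added (log2 fold-change 0.69 in both). Summed astrocyte markers were also higher, at 1000 to 1190 CPM in *Kat6a*+/+ and 1620 to 2300 CPM in *Kat6a*-/- libraries, with 5 of 8 tested markers higher and 1 lower, *Aqp4* and *Gjb6* under 1 CPM in both groups and *Gfap* under 1 CPM in *Kat6a*+/+. Stem and progenitor markers summed to 7560 to 8490 CPM in *Kat6a*+/+ and 5550 to 7510 CPM in *Kat6a*-/- libraries, with 4 of 9 tested markers lower and 1 higher. Of 10 tested neuronal markers 4 were lower and 1 higher, with overlapping sums. Cell cycle genes summed to 2450 to 2800 CPM in *Kat6a*+/+ and 1410 to 2530 CPM in *Kat6a*-/- libraries. The part of all these markers in the protocadherin differences was not tested.

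**Figure D2:**
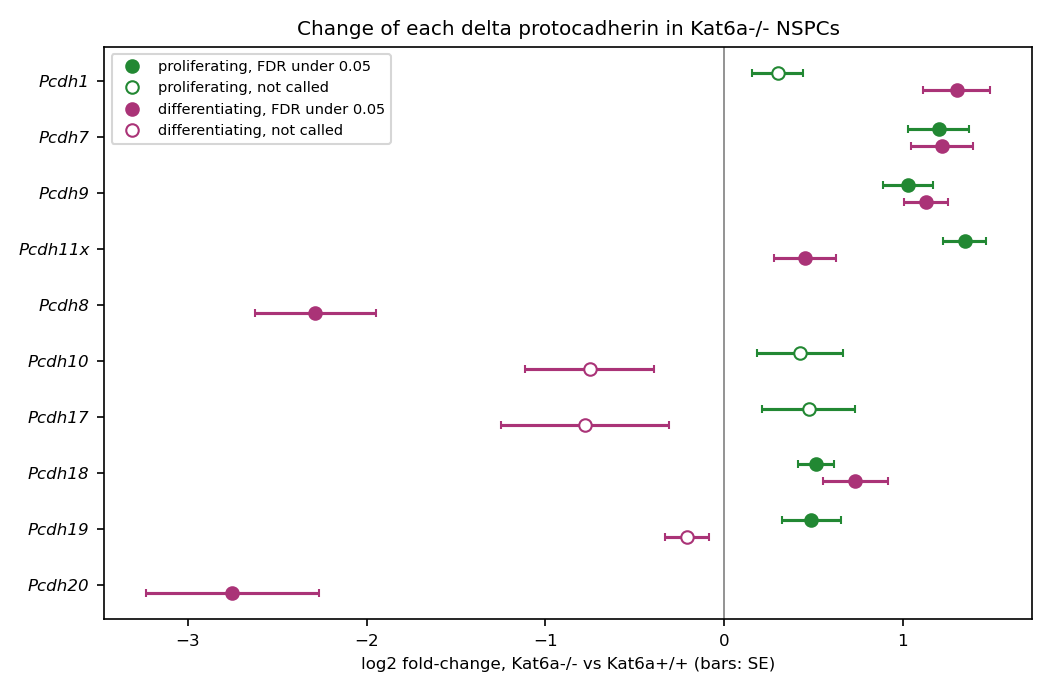
Fitted log2 fold-change of each member in *Kat6a*-/- against *Kat6a*+/+ NSPCs with its SE, for proliferating (green) and differentiating (purple) cells; filled symbols passed an FDR of 0.05. In differentiating cells all 4 delta-1 members (top 4) are to the right of 0, and *Pcdh8* and *Pcdh20* are to the left at -2.29 and -2.75.

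In differentiating NSPCs all 10 members were tested, and 5 were higher and 2 were lower in *Kat6a*-/- than in *Kat6a*+/+ NSPCs. A larger part of the transcriptome was called here, 54.4% of 13339 genes, with 26.7% higher and 27.7% lower. The median log2 fold-change was 0.12 over the members and -0.016 over all genes. The groups did not overlap for 5 of 10 members, against 26.9% of all tested genes. For *Pcdh11x* and *Pcdh20* the nearest *Kat6a*-/- and *Kat6a*+/+ libraries were almost level, at 23.74 and 23.72 CPM and at 0.319 and 0.328 CPM. The number of calls rested on single libraries: without *Kat6a*-/- replicate 1 or without *Kat6a*-/- replicate 3 only *Pcdh9* was called, and without *Kat6a*-/- replicate 2 all 10 members were. When scaled by library totals alone, the median of all genes shifted to -0.17 and the share of higher genes among all calls went from 49.1% to 31.7%, and then 4 members were higher and 4 were lower.

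All 4 delta-1 members were higher in differentiating *Kat6a*-/- NSPCs. *Pcdh1*, which is best known from epithelia, was at 24.3, 20.6, 21.7 and 17.1 CPM in *Kat6a*+/+ and at 50.4, 36.5, 58.4 and 41.9 CPM in *Kat6a*-/- libraries, without overlap (log2 fold-change 1.30, SE 0.19, FDR 0.000125). *Pcdh7* was at 102, 103, 112 and 70.0 CPM in *Kat6a*+/+ and at 246, 114, 256 and 154 CPM in *Kat6a*-/- libraries. Replicate 2 of *Kat6a*-/- was just above the highest wildtype library, and the other 3 were clear of it (log2 fold-change 1.22, SE 0.17, FDR 0.000121). *Pcdh9* was at 14.5, 10.4, 14.4 and 12.1 CPM in *Kat6a*+/+ and at 25.6, 29.7, 32.2 and 24.3 CPM in *Kat6a*-/- libraries (log2 fold-change 1.13, SE 0.12, FDR 1.74e-05), and it was called in all 23 alternative settings. *Pcdh11x* was at 18.7 ± 4.85 and 27.3 ± 4.02 CPM, and the lowest *Kat6a*-/- library at 23.74 CPM was level with the highest *Kat6a*+/+ library at 23.72 CPM (log2 fold-change 0.45, SE 0.17, FDR 0.0413). Its call was lost in 11 of 23 settings, with an FDR of up to 0.539. These included sex or litter as a fixed term, edgeR and no quality weights.

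The delta-2 members and *Pcdh20* did not share a direction. *Pcdh8* was at 15.4, 10.3, 16.7 and 8.97 CPM in *Kat6a*+/+ and at 1.17, 11.4, 2.71 and 7.94 CPM in *Kat6a*-/- libraries. Replicates 1 and 3 of *Kat6a*-/- were far below every wildtype library, while replicate 2 lay within the wildtype range (log2 fold-change -2.29, SE 0.34, FDR 0.000154). Without quality weights the *Pcdh8* change was not called, nor was it by edgeR or DESeq2. *Pcdh20* was at 1.98, 0.328, 1.64 and 0.377 CPM in *Kat6a*+/+ and at 0.206, 0.319, 0.0603 and 0.129 CPM in *Kat6a*-/- libraries, from 6 to 36 and from 1 to 6 counts (log2 fold-change -2.75, SE 0.48, FDR 0.000459). Litters were shared between genotypes, and the *Pcdh20* call was lost with litter as a fixed term. It was also lost with limma-voom and a random litter block. That setting replaced limma-trend and left out the quality weights as well, so the loss cannot be assigned to litter. Litter as a fixed term also ended the calls of *Pcdh7*, *Pcdh8*, *Pcdh11x* and *Pcdh18*. The differentiating libraries came from 7 litters, several with a single library. Lost power and an effect of litter therefore cannot be told apart in that fit. *Pcdh18* was at 11.01, 8.58, 9.94 and 12.7 CPM in *Kat6a*+/+ and at 15.7, 7.75, 20.6 and 10.7 CPM in *Kat6a*-/- libraries. Its groups overlapped, and the call (log2 fold-change 0.73, SE 0.18, FDR 0.00444) was lost without *Kat6a*-/- replicate 1 and turned to a log2 fold-change of -0.07 without *Kat6a*-/- replicate 3. The *Pcdh18* call was also lost with edgeR, DESeq2, limma-voom with litter block, litter or sex as a fixed term, no quality weights or no filter.

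*Pcdh10*, *Pcdh17* and *Pcdh19* were not called in differentiating *Kat6a*-/- NSPCs and varied widely between mutant libraries. *Pcdh10*, which recruits the WAVE complex and has been linked to autism, was at 139, 83.9, 131 and 72.7 CPM in *Kat6a*+/+ libraries. In *Kat6a*-/- libraries it was at 54.8, 318, 58.6 and 200 CPM, that is, 2 libraries below and 2 above the whole wildtype range. The fitted log2 fold-change was -0.75 (SE 0.36, FDR 0.0965), although the unweighted mean was higher in *Kat6a*-/- libraries, at 158 ± 126 against 107 ± 33.2 CPM, and without quality weights the log2 fold-change was 0.22. *Pcdh19* was at 45.8, 46.0, 47.2 and 42.0 CPM in *Kat6a*+/+ and at 34.5, 81.8, 38.2 and 46.2 CPM in *Kat6a*-/- libraries (log2 fold-change -0.21, SE 0.12, FDR 0.167). *Pcdh17* was at 17.6 ± 10.8 and 18.2 ± 13.2 CPM (log2 fold-change -0.78, SE 0.47, FDR 0.179).

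The same libraries thus stood at opposite ends for several members. Replicates 1 and 3 of *Kat6a*-/- had the higher *Pcdh1*, *Pcdh7* and *Pcdh18* levels and the lower *Pcdh8*, *Pcdh10*, *Pcdh17* and *Pcdh19* levels of the group, and replicates 2 and 4 the reverse. Summed astrocyte markers were 1840, 6240, 2090 and 3430 CPM in *Kat6a*-/- replicates 1 to 4, against 2370 to 3470 CPM in *Kat6a*+/+ libraries. By the fit, 5 of 9 tested astrocyte markers were lower and 1 higher. Summed fibroblast, meningeal and mesenchymal markers were 337, 79.0, 394 and 244 CPM, against 38.8 to 90.1 CPM, with 6 of 10 markers over 1 CPM on average and *Lum* at 0 in all 4 mutant libraries. Cell cycle genes summed to 89.2 to 227 CPM in *Kat6a*-/- and 571 to 950 CPM in *Kat6a*+/+ libraries, with all 6 genes lower. Of 10 tested neuronal markers 6 were lower and 2 higher, although their sums overlapped at 535 to 917 and 601 to 788 CPM, and *Dcx*, a gene of young neurons, fell from 39.3 ± 23.9 to 4.55 ± 3.77 CPM. Of the oligodendrocyte lineage markers 5 of 7 were lower and 1 higher. Of the stem and progenitor markers 6 of 9 were lower, with *Hes5*, a Notch target, at 33.7 ± 17.7 and 1.92 ± 1.10 CPM, and 2 were higher, *Vim* and *Nes*. The sums of the stem and progenitor markers were higher, at 6680 to 8310 CPM in *Kat6a*+/+ and 8600 to 12300 CPM in *Kat6a*-/- libraries. The part of these markers in the protocadherin differences was not tested.

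**Figure D3:**
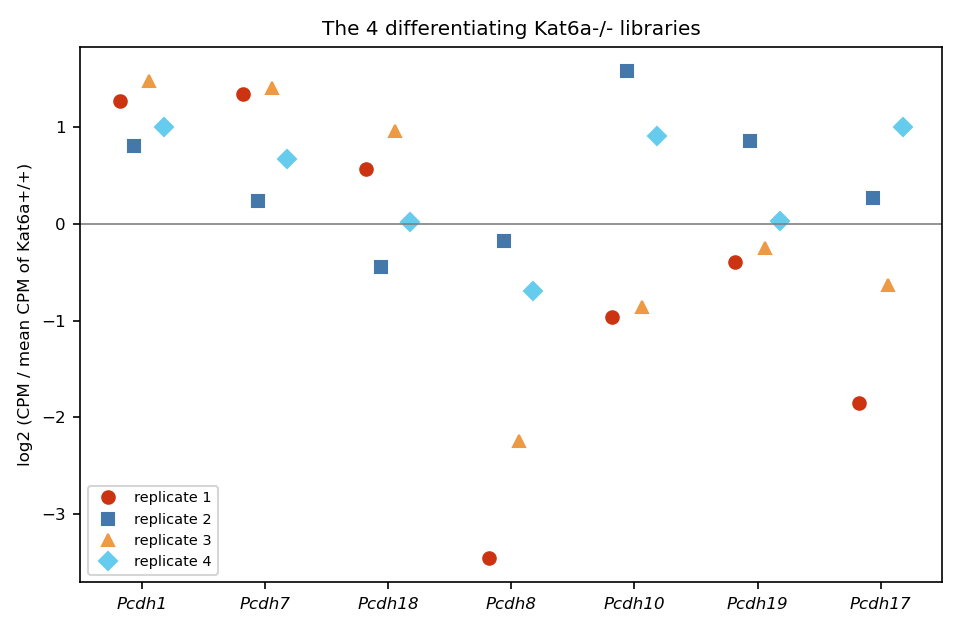
Level of 7 members in each differentiating *Kat6a*-/- library, as log2 of its CPM over the mean CPM of the 4 *Kat6a*+/+ libraries; 0 is the wildtype mean. Replicates 1 and 3 (circles and triangles) sit above replicates 2 and 4 (squares and diamonds) for *Pcdh1*, *Pcdh7* and *Pcdh18* and below them for *Pcdh8*, *Pcdh10*, *Pcdh19* and *Pcdh17*.

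No member changed detectably in *Kat6a*+/- NSPCs. In proliferating cells limma called 0 of 8 members and 0% of all genes in *Kat6a*+/- against *Kat6a*+/+, with 0 members and 912 genes at an unadjusted p under 0.05. In differentiating cells it called 0 of 10 members and 0% of all genes, with 1 member (*Pcdh1*, log2 fold-change 0.51, SE 0.20, FDR 0.279) and 1926 genes at an unadjusted p under 0.05. Neither edgeR nor DESeq2 called a member in either condition, while DESeq2 called 28 and 8 genes in all. The unweighted mean *Kat6a*+/- level lay between those of the other genotypes for 7 of 10 members in each condition, and the fitted level did so for 7 of 8 members in proliferating but 5 of 10 in differentiating cells, where *Pcdh10* and *Pcdh19* fell outside. *Pcdh7* was at 47.7 ± 10.2 CPM in proliferating and 129 ± 26.2 CPM in differentiating *Kat6a*+/- NSPCs, closer to *Kat6a*+/+ than to *Kat6a*-/- both times.

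Set against *Kat6a*+/- NSPCs, *Kat6a*-/- NSPCs gave 4 of 8 members called in proliferating cells, where 14.8% of all genes were called, and 7 of 10 members in differentiating cells, where 37.5% were called. The 4 members in proliferating cells were *Pcdh7*, *Pcdh9*, *Pcdh11x* and *Pcdh18*, and for each the lowest *Kat6a*-/- library was above the highest *Kat6a*+/- library, a separation of groups found in 12.3% of all tested genes. In differentiating cells the groups did not overlap for 3 of 10 members, *Pcdh9*, *Pcdh11x* and *Pcdh20*, and for 16.2% of all tested genes. Without *Kat6a*-/- replicate 1 or replicate 3 limma called 0 members in differentiating cells, with 1 member each time at an unadjusted p under 0.05, and without *Kat6a*-/- replicate 2 or *Kat6a*+/- replicate 2 it called all 10. These comparisons use the same *Kat6a*-/- libraries as those with *Kat6a*+/+ and are not independent of them.

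Within *Kat6a*-/- NSPCs, 6 of 10 members were called between conditions, where 69.2% of all genes were. *Pcdh1* rose from 31.8 ± 3.30 to 46.8 ± 9.61 CPM, *Pcdh7* from 92.6 ± 6.57 to 192 ± 69.7 CPM and *Pcdh8* from 0.385 ± 0.157 to 5.80 ± 4.71 CPM. *Pcdh9* fell from 61.9 ± 8.19 to 28.0 ± 3.68 CPM, *Pcdh11x* from 84.0 ± 6.53 to 27.3 ± 4.02 CPM and *Pcdh18* from 27.1 ± 1.17 to 13.7 ± 5.63 CPM. *Pcdh20* was at 0.189 ± 0.315 and 0.179 ± 0.111 CPM, near the level of 3 counts in both conditions. The *Pcdh1* call was lost without replicate 1 or 3 of differentiating or replicate 1, 2 or 3 of proliferating *Kat6a*-/- NSPCs, which left 5 members called.

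Whether the effect of the genotype differed between conditions was tested as an interaction over all 24 libraries. It was called for 1 of 10 members, against 13.9% of all genes. That member was *Pcdh11x*, whose excess in *Kat6a*-/- NSPCs was smaller in differentiating cells (interaction -0.80 on the log2 scale, SE 0.23, FDR 0.0263). The ratio of its mean CPM was 2.47 in proliferating and 1.46 in differentiating cells. The *Pcdh11x* interaction was not called without replicate 1 or 3 of differentiating *Kat6a*+/+ or replicate 1 of proliferating *Kat6a*+/+ NSPCs, where its interaction was -0.72, -0.75 and -0.68, and without replicate 2 of differentiating *Kat6a*-/- NSPCs *Pcdh1* and *Pcdh19* were called as well. Without both *Kat6a*+/+ libraries of conflicting sex limma called 0 members, with 2 at an unadjusted p under 0.05, and the *Pcdh11x* interaction was -0.56 (FDR 0.162). *Pcdh1* had an interaction of 0.77 (SE 0.30, FDR 0.0883), and *Pcdh7* and *Pcdh9* had interactions of -0.36 (SE 0.34, FDR 0.522) and 0.06 (SE 0.21, FDR 0.882).

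The summed level of the family shows how much its make-up shifted. Summed over the 10 members, proliferating NSPCs held 31.8 ± 5.66 RPKM in *Kat6a*+/+, 34.1 ± 5.28 RPKM in *Kat6a*+/- and 54.0 ± 3.97 RPKM in *Kat6a*-/-. Differentiating NSPCs held 36.9 ± 7.60, 45.5 ± 8.86 and 56.3 ± 6.84 RPKM. In both conditions the lowest *Kat6a*-/- sum, at 49.5 and 48.8 RPKM, was above the highest *Kat6a*+/+ sum, at 39.1 and 43.8 RPKM. *Pcdh11x* made up 10.7% to 12.48% of the sum in proliferating *Kat6a*+/+ and 15.5% to 18.5% in proliferating *Kat6a*-/- libraries. In differentiating *Kat6a*-/- libraries the share of *Pcdh10* ran from 9.01% to 41.3% and that of *Pcdh7* from 17.2% to 49.7%, while the pair together made up 54.9% to 59.2%.

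**Figure D4:**
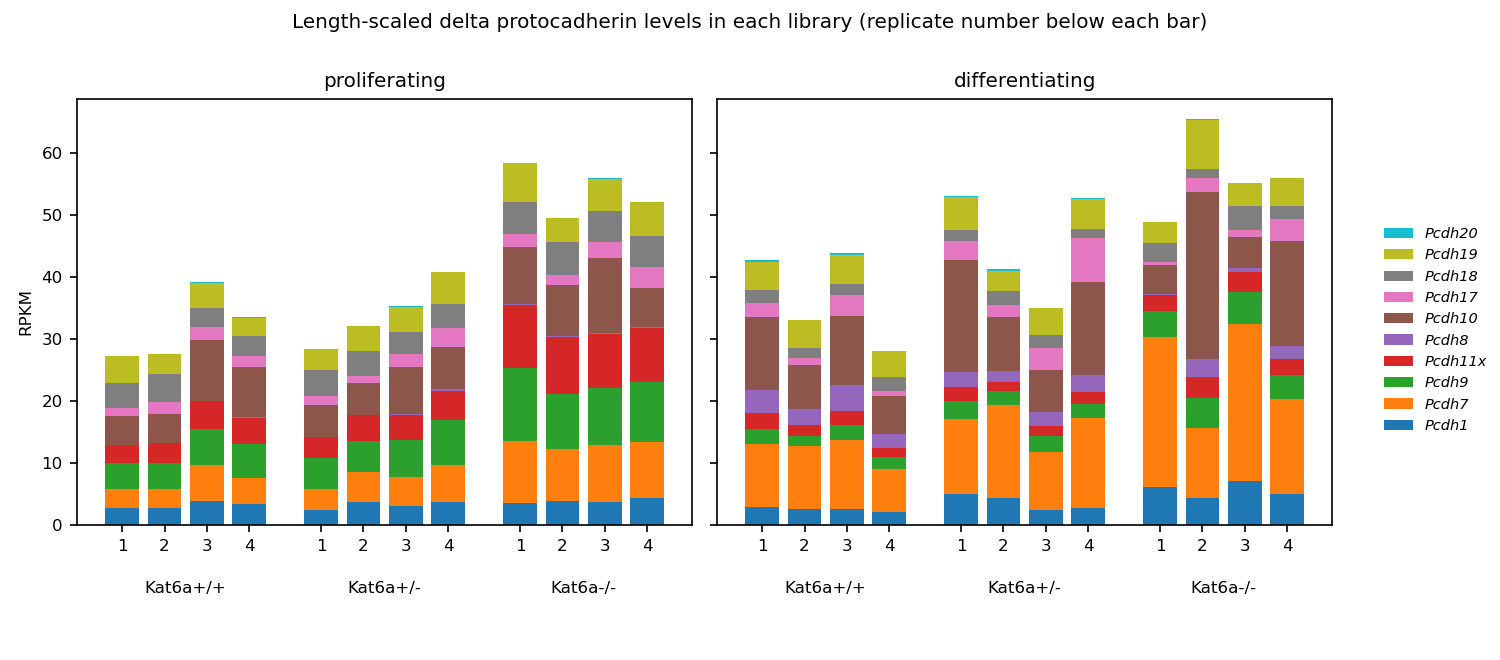
Stacked RPKM of the 10 members in each library, by genotype and replicate number, for proliferating (left) and differentiating (right) NSPCs. All *Kat6a*-/- bars stand above all *Kat6a*+/+ bars, and the largest segment is *Pcdh7* in differentiating *Kat6a*-/- replicates 1, 3 and *Pcdh10* in replicate 2.

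The members also varied together in part. After the mean of each condition was subtracted, Pearson's r of log2 CPM over the 24 libraries was 0.87 between *Pcdh9* and *Pcdh11x*, 0.83 between *Pcdh7* and *Pcdh9* and 0.79 between *Pcdh7* and *Pcdh11x*. It was -0.53 between *Pcdh10* and *Pcdh18* and -0.56 between *Pcdh8* and *Pcdh18*. Within differentiating libraries *Pcdh10* and *Pcdh19* had an r of 0.82. The points share genotype, litter and library, so these values are descriptions. Among 12410 genes, those with a pattern most like a member included *S100b*, an astrocyte gene, for *Pcdh9* (r = 0.92). *S100b* was the only astrocyte marker called higher in differentiating *Kat6a*-/- against *Kat6a*+/+ NSPCs, where 5 were lower. In proliferating cells 5 astrocyte markers were higher and 1 was lower. For *Pcdh7* the closest were *Cask* and *Kdsr* (r = 0.92 and 0.92), for *Pcdh11x* *Tm7sf3* and *Opcml* (r = 0.89 and 0.89), and for *Pcdh1* the closest was *Dsel* (r = 0.88). For *Pcdh10* they were *Slc9a9* and *Mmd2* (r = 0.88 and 0.87) and for *Pcdh19* *Phkb* and *Sfxn5* (r = 0.87 and 0.86). The highest r was lower for *Pcdh8* (*Xpr1*, 0.85, and *Acss1*, 0.85), *Pcdh18* (*Erp29*, 0.83, and *Dnmt3a*, 0.82), *Pcdh20* (*Plppr5*, 0.81, and *Chrna4*, 0.79) and *Pcdh17* (*Alcam*, 0.80, and *Gca*, 0.78).

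Other genes of the adhesion machinery gave a mixed picture. Over all tested genes, 16.2% were higher and 13.8% lower in proliferating *Kat6a*-/- than in *Kat6a*+/+ NSPCs. In differentiating *Kat6a*-/- NSPCs 26.7% were higher and 27.7% lower. Of 12 tested members of the other nonclustered cadherin families, 5 were higher and 2 lower in proliferating and 2 higher and 3 lower in differentiating *Kat6a*-/- NSPCs. *Celsr1*, a planar polarity cadherin, was higher in proliferating *Kat6a*-/- NSPCs (24.3 ± 3.70 to 47.0 ± 9.77 CPM, FDR 0.000773) and lower in differentiating *Kat6a*-/- NSPCs (284 ± 20.7 to 142 ± 49.3 CPM, FDR 1.92e-05), and *Celsr3* fell from 28.8 ± 10.2 to 4.59 ± 1.94 CPM in the latter. Of the classical cadherins and catenins, 5 of 15 tested genes were higher and 1 lower in proliferating and 6 of 16 were higher and 5 lower in differentiating cells. *Cdh10* rose from 21.3 ± 5.18 to 45.8 ± 3.61 CPM in proliferating cells and fell from 24.5 ± 5.58 to 18.2 ± 3.52 CPM in differentiating cells. *Cdh6* likewise rose from 12.2 ± 1.50 to 17.7 ± 3.40 CPM in the former and fell from 113 ± 14.9 to 67.2 ± 16.8 CPM in the latter. N-cadherin (*Cdh2*) was at 829 ± 95.3 and 1041 ± 197 CPM in differentiating *Kat6a*+/+ and *Kat6a*-/- NSPCs (log2 fold-change 0.52, SE 0.09, FDR 0.000307).

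Intracellular partners were also called in both directions. Such calls were common over all tested genes, at 30.0% in proliferating and 54.4% in differentiating *Kat6a*-/- against *Kat6a*+/+ NSPCs. Of the genes of the WAVE regulatory complex, through which delta-2 protocadherins reach actin, 2 of 9 were higher and 1 lower in proliferating and 4 of 11 higher and 3 lower in differentiating *Kat6a*-/- NSPCs. *Abi1*, a core subunit, was higher in both (log2 fold-change 0.23, FDR 0.0114, and 0.55, FDR 2.90e-05). In differentiating cells *Cyfip1* rose from 211 ± 6.48 to 272 ± 10.7 CPM, and the low *Nckap1l* fell from 2.96 ± 1.02 to 0.689 ± 0.526 CPM. *Wasf1* was lower in proliferating (log2 fold-change -0.41, FDR 0.0150) and in differentiating *Kat6a*-/- NSPCs (log2 fold-change -1.03, FDR 6.94e-05). Of the genes reported to encode delta protocadherin partners, 2 of 12 were higher and 1 lower in proliferating and 4 of 12 higher and 4 lower in differentiating cells. *Ppp1ca*, which encodes a catalytic subunit of protein phosphatase 1, fell from 308 ± 12.4 to 234 ± 20.3 CPM in proliferating *Kat6a*-/- NSPCs (log2 fold-change -0.35, SE 0.06, FDR 0.00193). In differentiating ones its mean rose from 248 ± 5.05 to 286 ± 60.4 CPM (log2 fold-change 0.33, SE 0.09, FDR 0.00809). There the *Kat6a*-/- libraries ran from 212 to 351 CPM, on both sides of the *Kat6a*+/+ range of 243 to 255 CPM. *Ppp1cc*, which encodes another catalytic subunit, fell from 84.1 ± 5.04 to 63.9 ± 4.09 CPM in differentiating *Kat6a*-/- NSPCs. The median log2 fold-change of the 4 lists lay between -0.11 and 0.25.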

How the data were processed

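RNA-seq of 24 NSPC libraries was analysed. The authors aligned reads to mm39 with Rsubread and deposited raw read counts per gene from featureCounts on a strict RefSeq annotation; software versions and the strand setting are not given in the sources used here, so reads of genes that overlap on opposite strands may not be separated. The 2 rows without a symbol (at most 0.00205% of counts) were left out. Protein-coding genes passing filterByExpr were kept, without *Xist* and Y-unique genes. The fit of proliferating libraries used limma-voom and a random litter block (within-litter correlation 0.287), differentiating libraries with limma-trend on log2 CPM (prior count 2) with arrayWeights, and all 24 with limma-voom and litter (limma 3.58.1, edgeR 4.0.16, DESeq2 1.42.0, R 4.3.3). Moderation was robust, and FDR is Benjamini-Hochberg over all tested genes with a threshold of 0.05. All 10 members were named, as were up to 3 genes with the smallest p of each gene list and, for each member, the 2 genes most like it in pattern, of which some are not reported here. The members and lists were chosen with earlier results of these data known. Replicates of a group came from separate embryos, and their counts differed beyond sampling noise (chi-square per degree of freedom of at least 4.83). Not all came from separate litters: *Kat6a*-/- replicates 1 and 2 shared a litter in both conditions, as did proliferating *Kat6a*+/- replicates 2 and 3. Scripts were tested on simulated data. Alternatives were edgeR, DESeq2, other scalings, filters, blocks and weights, sex, and each library left out. Leaving out both *Kat6a*+/+ libraries with the same embryo label and conflicting sex was chosen after seeing the data.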

Additional observations from a re-analysis of the deposited data

Results flagged for a closer look

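*Pcdh20* in proliferating *Kat6a*-/- replicate 3 was at 0.657 CPM, whereas the other 3 libraries of the group were at 0 to 0.0997 CPM. The gap to the nearest library was 0.848 of the group's range, above the critical value of 0.829; 60 such tests were made and 1 passed, and chance alone passes about 1 in 20. *Pcdh11x* differed between conditions in its response to the *Kat6a*-/- genotype, with an interaction of -0.80 on the log2 scale by a test of the difference itself, which was not called without the *Kat6a*+/+ libraries of conflicting sex.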

How the results depend on the processing

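Of 1131 values recomputed for single members under the alternatives, 1020 kept their direction and their side of the threshold, 50 were no longer called, 16 became called and 45 changed sign. In differentiating *Kat6a*-/- against *Kat6a*+/+ NSPCs, 4 members were called with edgeR, without quality weights or with limma-voom and litter block, and 2 with litter as a fixed term, and 1 to 10 when single libraries were left out. Against *Kat6a*+/- the counts were 2 with edgeR, without weights, with limma-voom or with sex as a fixed term, 4 with DESeq2 or without a filter, 0 with litter as a fixed term (limma, 4 at an unadjusted p under 0.05) and 0 to 10 without single libraries. In *Kat6a*+/- against *Kat6a*+/+ differentiating NSPCs 0 to 1 members were called without single libraries. The interaction was called for 2 members by edgeR and DESeq2, 0 with litter as a fixed term (limma, 2 at an unadjusted p under 0.05), 3 with quality weights added, 0 (2 at an unadjusted p under 0.05) without both *Kat6a*+/+ libraries of conflicting sex and 0 to 3 without single libraries.

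The log2 fold-change of *Pcdh10* in differentiating *Kat6a*-/- NSPCs changed sign to 0.56 (edgeR), 0.57 (DESeq2), 0.22 (no weights) and 0.29 (limma-voom). That of *Pcdh17* became 0.0434, 0.0490 and 0.0427 with edgeR, DESeq2 and limma-voom. That of *Pcdh19* became 0.15, 0.16, 0.0630 and 0.11 with edgeR, DESeq2, no weights and limma-voom. Without single libraries these ranged from -0.999 to 0.57 for *Pcdh10*, from -0.27 to 0.36 for *Pcdh19* and from -0.0693 to 0.92 for *Pcdh18*. Between conditions in *Kat6a*+/+ NSPCs, *Pcdh17* became 0.0666 (edgeR), 0.0835 (DESeq2), 0.26 (litter fixed) and 0.39 (weights added), and -0.42 to 0.37 without single libraries. The interaction became -0.0932 (library totals) and -0.0496 (weights added) for *Pcdh9*, 0.15, 0.15 and 0.0143 (edgeR, DESeq2 and without the libraries of conflicting sex) for *Pcdh10* and 0.17 (weights added) for *Pcdh18*, and without single libraries it ranged from -0.0888 to 0.13, from -0.80 to 0.0808 and from -0.46 to 0.0437. The cause of these changes was not tested.

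Same-numbered libraries did not regularly deviate together (r of their deviations from -0.334 to 0.481 in proliferating and -0.468 to 0.154 in differentiating cells). The highest r was in replicate 4 of proliferating cells. Some same-numbered libraries shared a litter in each of proliferating replicates 1, 2, 3 and 4, where the highest r was 0.183, 0.138, 0.152 and 0.481. The numbers were therefore not taken to pair samples. With a replicate block 5 and 7 members were called in proliferating and differentiating *Kat6a*-/- against *Kat6a*+/+ NSPCs, as without it. Low counts limit *Pcdh20* throughout and *Pcdh8* in proliferating cells.

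Over all genes, the counts of calls also depended on the setting. In differentiating *Kat6a*-/- against *Kat6a*+/+ NSPCs 7258 genes were called, against 3244 by edgeR, 4076 by DESeq2, 1785 and 3950 with litter and sex as fixed terms, 3097 without quality weights, 2806 with limma-voom, and 939 to 9505 without single libraries. Against *Kat6a*+/- the count was 5007, and 1656, 2621, 386, 1605, 1616 and 1406 in the same order, 3031 without a filter, and 243 to 7397. In proliferating cells 3686 genes were called against *Kat6a*+/+, 1936 with litter as a fixed term and 2317 to 3996 without single libraries, and 1813 against *Kat6a*+/-, 951 by edgeR, 960 without the litter block and 696 to 2200. In *Kat6a*+/- against *Kat6a*+/+ up to 28 (proliferating) and 301 (differentiating) genes were called in place of 0. The interaction was called for 1895 genes, 4800 with weights added, 905 without the libraries of conflicting sex and 1265 to 3520 without single libraries.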
